A study of Mus musculus with 24 samples.

Results

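The 32 genes described here carry glucose into the cell and through glycolysis, or set how much of it enters, and they were taken as a fixed list of gene symbols from the 55401 genes in the single-cell count tables. The list holds Txnip and its relative Arrdc4, the glucose transporters Slc2a1 and Slc2a3, 15 enzymes of glycolysis from Hk1 to Pkm, 7 genes for the further fate of pyruvate and lactate (Ldha, Ldhb, Slc16a1, Slc16a3, Pdk1, Pdk2 and Pdha1), 3 enzymes that make or remove regulatory side products (Pfkfb3, Pfkfb4 and Bpgm) and the transcription factors Hif1a, Myc and Mlxip. All 32 had at least 1 read. The cells were LiNKT cells, the invariant natural killer T cells of the liver that bind αGalCer/CD1d tetramers, from NOD mice, which develop autoimmune diabetes spontaneously. Untreated mice were compared with mice given αGalCer/CD1d-NPs, iron oxide nanoparticles that carry CD1d loaded with the glycolipid αGalCer, at 20 µg in 2 doses per week for 5 weeks from 8 to 10 weeks of age. RNA was read in single cells by SmartSeq2 (3 untreated and 3 treated male mice, 13 to 15 weeks old), DNA methylation by whole genome bisulfite sequencing (WGBS; 7 untreated female mice of 17 weeks and 4 treated mice of 16 weeks) and open chromatin in nuclei by the 10X multiome (5 untreated and 4 treated male mice, 13 to 15 weeks old). Neither tables nor labels tell the mice within a group apart. The study sorted replicate samples for WGBS, but the tables hold 1 methylation value per group. Each group was therefore 1 sample per assay here, no test between groups was possible, and RNA and methylation came from different mice.

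Glycolysis splits glucose into pyruvate with a small gain of ATP, and activated T cells raise glucose uptake and send much of the pyruvate to lactate. Txnip encodes the thioredoxin-interacting protein, an arrestin-domain protein that binds thioredoxin and draws the glucose transporters encoded by Slc2a1 and Slc2a3 away from the cell surface. Its transcription rises with glucose through carbohydrate response elements bound by the factor that Mlxip encodes together with Mlx, and it is high in resting lymphocytes.

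Txnip is summarised first, and a gain of methylation in it was known when the list was chosen. Txnip RNA was 663 counts per 1000000 counts (CPM) over the summed untreated cells and 322 CPM over the treated cells, and reads were found in 37.7% and 19.5% of the cells. In the treated group the downstream part of the gene had gained methylation in 3 adjoining regions, the middle one rising from 13.2% to 69.9%. The 15 glycolytic enzymes summed to 4444 and 4501 CPM, and 5 other genes of the list had a differentially methylated region, with gains in Slc2a3 and Hk1 and losses in Slc2a1, Pkm and Pfkp.

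The sequences behind these results are given first, as the reference strain C57BL/6J has them in GRCm38.p6 (the NOD genome may differ at single bases). The Txnip promoter, the 250 bases before the RefSeq start site, is printed with capitals at 17 bases that match CACGAG, any 5 bases and CACGAG again, the form in which the carbohydrate response element of Txnip itself is known. The other stretches are taken from regions whose methylation differed, with CpGs in capitals and on the strand of the gene. They are 300 bases of coding sequence and intron from the first Txnip region, the whole Slc2a3 region, and 300 bases of the Pfkp region, which shows a loss. The stretches of 300 bases were chosen as those with the most CpGs in their region.
Txnip promoter, chr3:96557707-96557956, plus strand: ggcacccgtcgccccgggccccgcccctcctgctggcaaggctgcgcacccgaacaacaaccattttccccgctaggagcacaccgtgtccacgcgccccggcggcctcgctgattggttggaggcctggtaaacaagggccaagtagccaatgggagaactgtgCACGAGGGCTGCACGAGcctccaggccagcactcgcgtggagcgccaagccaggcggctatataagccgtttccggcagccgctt
Txnip gain, chr3:96560019-96560318, plus strand: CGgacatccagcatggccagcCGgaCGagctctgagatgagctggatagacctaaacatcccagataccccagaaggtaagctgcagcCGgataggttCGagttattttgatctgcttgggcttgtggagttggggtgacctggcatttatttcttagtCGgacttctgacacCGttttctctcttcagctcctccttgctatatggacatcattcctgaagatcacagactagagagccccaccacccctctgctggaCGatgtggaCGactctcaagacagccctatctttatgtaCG
Slc2a3 gain, chr6:122761139-122761385, minus strand: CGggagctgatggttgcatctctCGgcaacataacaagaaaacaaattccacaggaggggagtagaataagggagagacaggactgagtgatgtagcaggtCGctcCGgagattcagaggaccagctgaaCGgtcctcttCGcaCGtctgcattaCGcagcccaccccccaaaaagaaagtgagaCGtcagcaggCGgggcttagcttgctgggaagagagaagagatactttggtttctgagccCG
Pfkp loss, chr13:6636523-6636822, minus strand: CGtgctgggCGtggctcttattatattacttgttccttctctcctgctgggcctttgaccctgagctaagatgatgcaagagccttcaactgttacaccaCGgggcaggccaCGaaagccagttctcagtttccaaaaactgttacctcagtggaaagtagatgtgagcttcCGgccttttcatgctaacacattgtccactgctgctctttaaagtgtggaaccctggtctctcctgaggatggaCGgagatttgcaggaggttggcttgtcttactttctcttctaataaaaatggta
The paired motif lies 85 to 69 bases before the Txnip start. It was searched in the form known from Txnip, so that its match there was fixed beforehand and its share, 1 of 32851 RefSeq promoter windows of this length on either strand (0.00304%), does not tell how common such elements are. The E-box CACGTG, which does not overlap the paired motif, was found in 6.02% of the windows and in 7 of the 44 windows of the 30 listed genes with an entry (Arrdc4, Hif1a, Ldha, Pdk2, Pfkfb3, Pfkm and Slc16a1). The printed Txnip stretch holds 10 CpGs, whose 20 cytosines (both strands) were methylated at 11.3% ± 8.28 in untreated and 46.1% ± 17.1 in treated cells (SD between cytosines). The 11 CpGs of the Slc2a3 stretch were at 15.7% ± 12.8 and 43.7% ± 17.2 over 22 cytosines, and the 6 of the Pfkp stretch at 52.0% ± 13.1 and 13.9% ± 11.1 over 12.

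The SmartSeq2 tables gave 273 untreated and 251 treated cells that the study had placed in a sub-cluster, with medians of 635257 and 599896 counts per cell and 172559865 and 149084200 counts in all. SmartSeq2 has no molecular identifiers, and all intervals below (95%, exact Poisson for CPM and exact binomial for shares of cells) cover counting error only, not the spread between mice. The CD3 genes fitted the label, with Cd3e in 81.3% of untreated and 79.7% of treated cells, while Zbtb16, which encodes the iNKT factor PLZF, was read in 4.40% and 6.37%. Klrb1c (5.5% and 9.16%) and Trav11 (20.5% and 19.5%) were also read in a minority of cells. Of the markers of other cell types, those of 3 of the 4 types were higher in the treated cells: the summed CPM of 3 macrophage genes was 0.0116 and 1793, of 4 erythroid genes 3.46 and 571, of 4 hepatocyte genes 0 and 82.3, and of 3 B cell genes 0.0116 and 0. At least 100 CPM of these markers was reached by 2 untreated and 30 treated cells. The 12 genes of dividing cells summed to 475 and 775 CPM. Mki67 was read in 0 of the untreated cells (at 0 CPM) and in 5.58% of the treated cells (114 CPM). Tyms (23.9 and 13.0 CPM), Tk1 (21.5 and 9.23 CPM) and Mcm5 (70.1 and 61.2 CPM) went the other way. Pcna was nearly level (107 and 112 CPM), and the rest of the list was at higher CPM in treated cells. Some results below are also given without the cells that reached 100 CPM of the markers of other cell types. The part of the genes of dividing cells in the results was not tested.

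A gene was compared between the groups if its counts summed to 500 or more and if 10% or more of all cells, taken over both groups, had a read. This left 11 of the 32 genes, among 1689 genes in all. A ratio is given on the log2 scale with 1 CPM added to both values, and a gene was counted as lower or higher from a log2 ratio of 1 on. With this rule 1 of the 11 genes, Txnip, was lower in the treated cells, where 3.79% of the 1689 genes were, and 0 of the 11 were higher, where 4.56% were. The median log2 ratio was -0.01 over the 11 genes and -0.01 over the 1689.

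**Figure D1:**
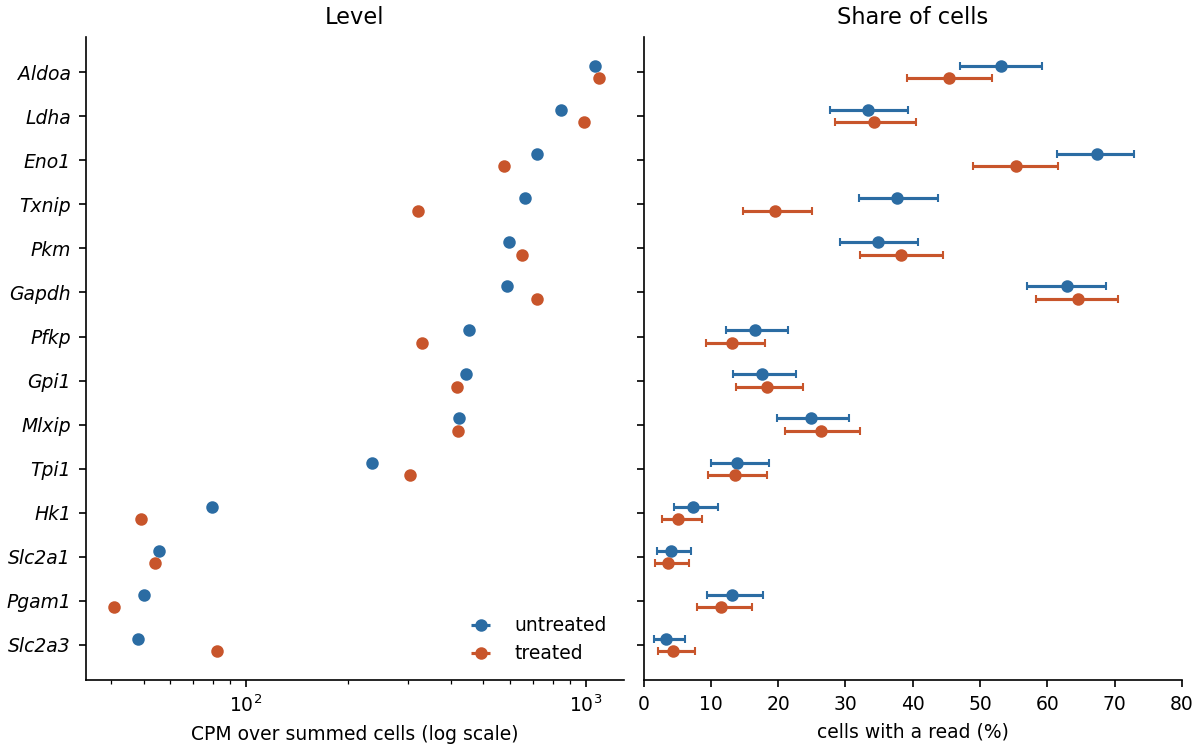
Level in CPM over the summed cells (left, log scale) and share of cells with a read (right) for the 11 genes that passed and for Hk1, Slc2a1 and Slc2a3, in untreated (blue) and treated (orange) cells; bars are 95% counting intervals, on the left mostly hidden by the points. Txnip moved from 663 to 322 CPM and from 37.7% to 19.5% of cells, and most other pairs of points lie close together.

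The log2 ratio of Txnip was -1.04, a level 2.06 times higher in the untreated cells, and 3.43% of the 1689 genes had a ratio as low or lower. The shares of cells with a Txnip read were 103 of 273 (interval 31.96% to 43.77%) and 49 of 251 (14.81% to 24.97%), without the spread between mice. They were 36.3% and 18.9% after thinning every cell to 100000 reads, which left out 3 cells of each group, and 35.5% and 18.3% when 5 reads were asked for. Within the cells that had a read, the median level was 1688 CPM (untreated) and 1558 CPM (treated), with quartiles of 412 and 2639 against 237 and 2360. The levels of the positive cells thus overlapped widely, while the shares of positive cells differed. Cell names carry a 1 or 2 after a shared code, called lane 1 and lane 2 here, although no label says what the number stands for. Treated cells were lower in both, with 673 and 292 CPM in lane 1 and 643 and 385 CPM in lane 2. In lane 2 the log2 ratio of -0.74 was under the size counted as lower. Without the cells that carried markers of other cell types it was 666 against 332 CPM. SmartSeq2 does not mark strand, and the antisense gene Gm15441, which spans Txnip, was at 1.66 and 4.23 CPM in 6 and 4 cells.

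The study's sub-clusters of these cells were assigned from their RNA, so that the levels by sub-cluster are a description. In untreated cells Txnip was read in 37.7% of the 228 cells of sub-cluster 2 and 37.2% of the 43 cells of sub-cluster 4, at 656 and 724 CPM. In treated cells it was read in 24.6% of 61 cells of sub-cluster 2 and 22.6% of 133 cells of sub-cluster 4, at 386 and 414 CPM. Sub-cluster 5, which held 57 treated cells and no untreated cell, had Txnip reads in 7.02% (4 cells, interval 1.95% to 17%) at 69.6 CPM. The level was therefore lower in treated cells within sub-clusters 2 and 4, by log2 ratios of -0.76 and -0.81 (the median over all genes that passed was -0.18 and 0.05), and lowest in sub-cluster 5. Leaving out sub-cluster 5, the groups were at 663 and 405 CPM, a log2 ratio of -0.71 that is under the size counted as lower.

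**Figure D2:**
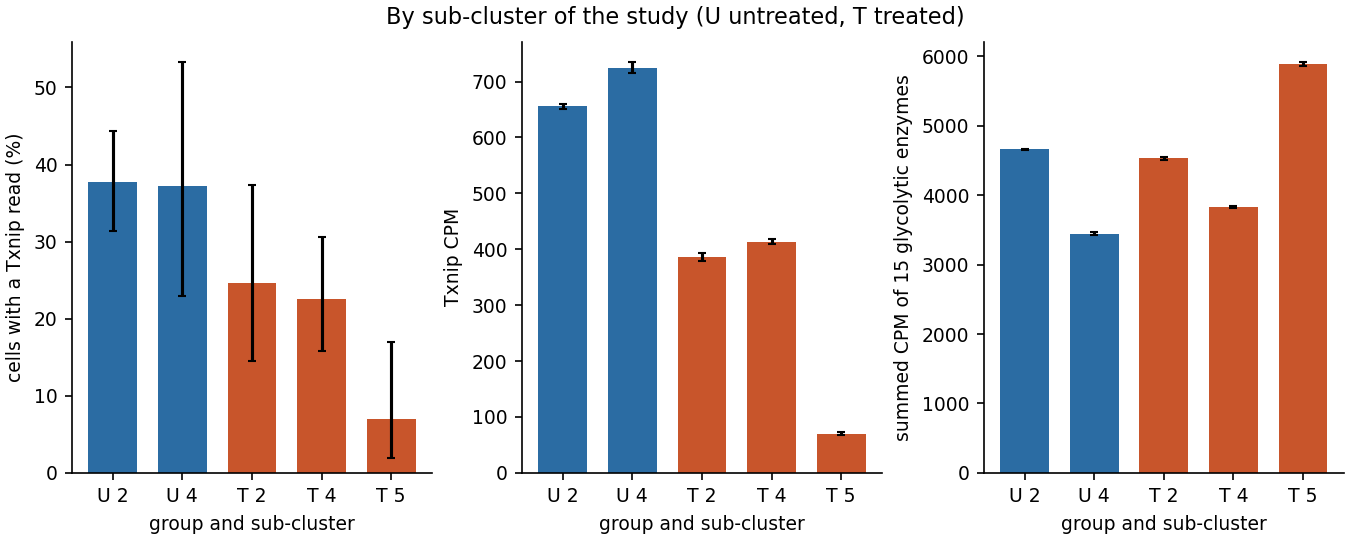
Share of cells with a Txnip read (left), Txnip CPM (middle) and summed CPM of the 15 glycolytic enzymes (right) in the sub-clusters of untreated (U, blue) and treated (T, orange) cells; bars start at 0 and whiskers are 95% counting intervals. Txnip is lowest in treated sub-cluster 5 (69.6 CPM), where the enzymes together are highest (5892 CPM).

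The enzymes of glycolysis stood close to their untreated levels as a group, with 8 of the 15 passing, none of them past the limit, and a median log2 ratio of -0.03. In order of the pathway, Gpi1, which makes fructose 6-phosphate from glucose 6-phosphate, was at 445 and 419 CPM (17.6% and 18.3% of cells). Pfkp, a phosphofructokinase that catalyses the committed step, was at 453 and 330 CPM (16.5% and 13.1% of cells), a log2 ratio of -0.46. Aldoa, the aldolase, was at 1065 and 1090 CPM, and its share of cells was 53.1% and 45.4%. Pfkp had the lowest ratio of these 3. The intervals of the Aldoa shares overlapped, and its log2 ratio of 0.03 was -0.16 in lane 1 and 0.47 within sub-cluster 4, as that of Gpi1 went from -0.09 to 0.54 within sub-cluster 4.

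Tpi1, which interconverts the triose phosphates, was at 236 and 305 CPM in nearly equal shares of cells (13.9% and 13.5%). Gapdh, the glyceraldehyde phosphate dehydrogenase, was at 585 and 720 CPM with 63.0% and 64.5% of cells positive. Pgam1, the phosphoglycerate mutase, was at 50.2 and 40.9 CPM in 13.2% and 11.6% of cells. Eno1, the enolase, was the enzyme whose share of cells differed most, 67.4% (interval 61.5% to 72.9%) against 55.4% (49.0% to 61.6%), at 720 and 576 CPM, a log2 ratio of -0.32. Its near-identical copy Eno1b was at 195 and 147 CPM, and how reads were divided between such copies is not known, which makes the values of Eno1 uncertain. Processed copies of Gapdh, Tpi1 and Pgam1 held at most 1.23 CPM each (Pgam1-ps2). Pkm, the pyruvate kinase, was at 596 and 651 CPM (34.8% and 38.3% of cells). Ldha, the lactate dehydrogenase subunit that favours lactate, was at 844 and 989 CPM (33.3% and 34.3% of cells). The genes from triose phosphate to lactate were thus mixed in direction, with Tpi1, Gapdh, Pkm and Ldha at higher CPM and Eno1 and Pgam1 at lower CPM in treated cells, by log2 ratios between -0.32 and 0.37. The higher values did not hold in every split: Tpi1 was at -0.06 and Gapdh at -0.01 in lane 2, Pkm at -0.16 within sub-cluster 2, and Ldha at -0.16 within sub-cluster 4 and -0.03 without sub-cluster 5. Eno1, Pgam1 and Pfkp stayed below 0 under each alternative tried. Mlxip, the glucose-sensing factor, was at 424 and 420 CPM in 24.9% and 26.3% of cells. Its log2 ratio of -0.01 was 0.16 in lane 1 and -0.37 in lane 2, and 0.19 within sub-cluster 2 and -0.69 within sub-cluster 4, so that its direction differed between the splits.

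By sub-cluster, the 15 enzymes summed to 4661 CPM in untreated sub-cluster 2 and 3442 CPM in untreated sub-cluster 4. In treated cells they summed to 4531, 3833 and 5892 CPM in sub-clusters 2, 4 and 5. Gapdh was at 585 and 590 CPM in the untreated sub-clusters 2 and 4, at 597 CPM in both of the treated ones, and at 1087 CPM in sub-cluster 5. Ldha reached 1483 CPM and Gpi1 782 CPM in sub-cluster 5, against 858 and 506 CPM in untreated sub-cluster 2. Tpi1, Pfkp and Pkm were also higher in sub-cluster 5 than there (426 against 243, 614 against 472 and 732 against 622 CPM). Aldoa (1151 against 1136 CPM) and Pgam1 (47.9 against 48.95 CPM) were nearly level, and Eno1 (603 against 728 CPM) and Hk1 (71.5 against 87.5 CPM) were lower. Treated sub-cluster 2 was below sub-cluster 5 in Hk1 (29.2 CPM) and Pgam1 (31.5 CPM). Its Tpi1 (391 CPM) and Ldha (1139 CPM) were nearer to sub-cluster 5 than those of untreated sub-cluster 2. Its Gpi1 (455 CPM), Pfkp (307 CPM) and Pkm (558 CPM) were further away. Sub-cluster 5 thus had the lowest Txnip and the highest summed enzymes. The median depth was 664117 counts in sub-cluster 5, and 632246 and 650536 in untreated sub-clusters 2 and 4. In treated sub-clusters 2 and 4 it was lower, 535694 and 610978.

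Levels were also taken per length, as CPM per kb of the exons of all annotated transcripts together. This length can exceed that of the transcript in use: for Gapdh it was 4.133 kb of a gene of 4753 bp, and for Txnip 3.123 kb. The order of genes below therefore depends on the annotation. Aldoa was highest in untreated cells (366), followed by Ldha (255), Txnip (212), Gapdh (142), Eno1 (134) and Pkm (119). In treated cells Aldoa (375) and Ldha (299) were followed by Gapdh (174), Pkm (130), Tpi1 (111), Eno1 (107) and Txnip (103). Txnip moved from the third to the seventh place in this order. A cell had reads of a median of 4 of the 32 genes in both groups (quartiles 3 and 6 in untreated and 3 and 5 in treated cells), and the median was 4 in both after thinning.

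The other 21 genes did not pass, all for being read in too few cells (0.191% to 9.73% of all cells), and 13 of them were read in fewer than 2%, in at most 6 cells of a group. In these 21 genes a single cell held a median of 58.5% of the untreated and 32.6% of the treated reads of a gene, so that many of their ratios rest on few cells. This does not hold for all of them. The highest cell held 6.19% and 19.3% of the reads of Myc (35 and 13 cells), and 7.85% and 14.6% of those of Pgk1 (25 and 26 cells). Myc, read in 9.16% of all cells, had a log2 ratio of -1.44, lower than that of Txnip. Hk1, the hexokinase that traps glucose, was at 79.6 and 49.3 CPM in 7.33% and 5.18% of cells. Slc2a1, which encodes the basal glucose transporter GLUT1, was at 55.4 and 54.2 CPM in 4.03% and 3.59% of cells, and Slc2a3, which encodes the high-affinity GLUT3, at 48.2 and 82.5 CPM in 3.30% and 4.38%. Myc, which drives glycolytic genes in activated T cells and is named here after its values were seen, was at 222 and 80.9 CPM in 12.8% and 5.18% of cells. Its reads in sub-cluster 2 came from 31 of 228 untreated cells (250 CPM) and from 0 of 61 treated cells, which allows a share of up to 4.92% if 3 cells are taken as the limit for a count of 0 (exact binomial bound 5.87%). Of sub-cluster 5, 0 of 57 cells had any, which allows up to 5.26% (exact bound 6.27%). In sub-cluster 4 it was at 89.2 and 153 CPM, the other direction. Hif1a, also named after its values were seen, was at 62.8 and 85.0 CPM in 5.49% and 8.37% of cells. In sub-cluster 5 it was at 256 CPM in 24.6% of cells (14.1% to 37.8%), and in the other sub-clusters at 22.7 to 63.8 CPM in 2.33% to 6.14% of cells. Arrdc4, the arrestin-domain relative that shares regulators with Txnip, was read in 3 untreated and 5 treated cells.

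In 5 neighbouring lists of genes, 0 genes that passed were beyond the limit in either direction, but few passed, and with 3.79% and 4.56% of all genes past it this count says little of the lists. The thioredoxin network had 2 of 9 genes passing and summed to 827 and 804 CPM, and the pentose phosphate pathway had 2 of 7 and summed to 835 and 797 CPM. Pyruvate entry into mitochondria (1 of 11 passing, 550 and 482 CPM) and the HIF pathway with its hypoxia targets (1 of 14, 429 and 452 CPM) were likewise near their untreated sums. Other isoforms and transporters of glycolysis had no gene passing and summed to 131 and 278 CPM.

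Methylation was compared in the regions that the authors had called as differentially methylated between the groups, 2873 in all, of which 890 had gained methylation in treated cells and 1983 had lost it. A region was assigned to a gene when it overlapped the gene body or the 2 kb on either side of its start. Of the 32 genes, 3 had a gain and 3 a loss, each 9.38% of the list. Over 21938 protein-coding genes these shares were 2.63% and 4.2%, and the median gene length was 18752 bp in the list and 17425 bp over all. The gain in Txnip was known when the list was chosen, so that the share with a gain is not independent of that choice. None of the 8 regions lay in the 2 kb upstream of a start, and at the other 26 genes no called region overlapped. The 8 regions held 202 cytosines in CpGs, both strands of a CpG counted, and 201 of them moved in the direction of their region. The regions were called for a difference between these same groups. Such agreement within them, here and below, is therefore a description and no separate evidence of a change. The DNA was bulk, so that a change in the mix of cells and a change within cells cannot be told apart, nor can treatment from age or, as the sex of the treated mice is not stated, from sex. Depth per cytosine is unknown, and SD values below are between cytosines of a region, not between mice.

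Txnip (chr3:96557957-96561883, plus strand, 8 exons) had 3 of the 5 gains, separated by 37 and 15 bp, which together ran from 1668 to 4988 bp after its start. The first, chr3:96559625-96560521, covers coding parts of exons 5 to 8 with the introns between them, and went from 6.50% ± 7.20 to 39.2% ± 16.6 over 46 cytosines. The second, chr3:96560559-96561712, lies within the part of exon 8 after the coding sequence and went from 13.8% ± 10.3 to 70.0% ± 12.4 over 38 cytosines. The third, chr3:96561728-96562945, covers the end of that exon and runs on past the gene, and went from 47.8% ± 22.2 to 75.7% ± 19.3 over 29 cytosines. Methylation was higher in treated cells at 112 of the 113 cytosines, and at each of the 38 in the second region, where the gain per cytosine was 56.2 points ± 8.28. The gain of 56.7 points in the second region was the 22nd largest of the 890 gains. All 3 regions also lie inside Gm15441, which runs on the other strand. A further region centred at -2470 bp from the start, outside both the gene and the 2 kb window, was at 84.3% and 95.3%. At least 3 gains were found in 33 of the 21938 genes. As the gain in Txnip was known when the list was chosen, this count and the rank among the 890 gains only describe it. With gaps of 37 and 15 bp, the number of 3 also depends on how the stretch was divided into regions.

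**Figure D3:**
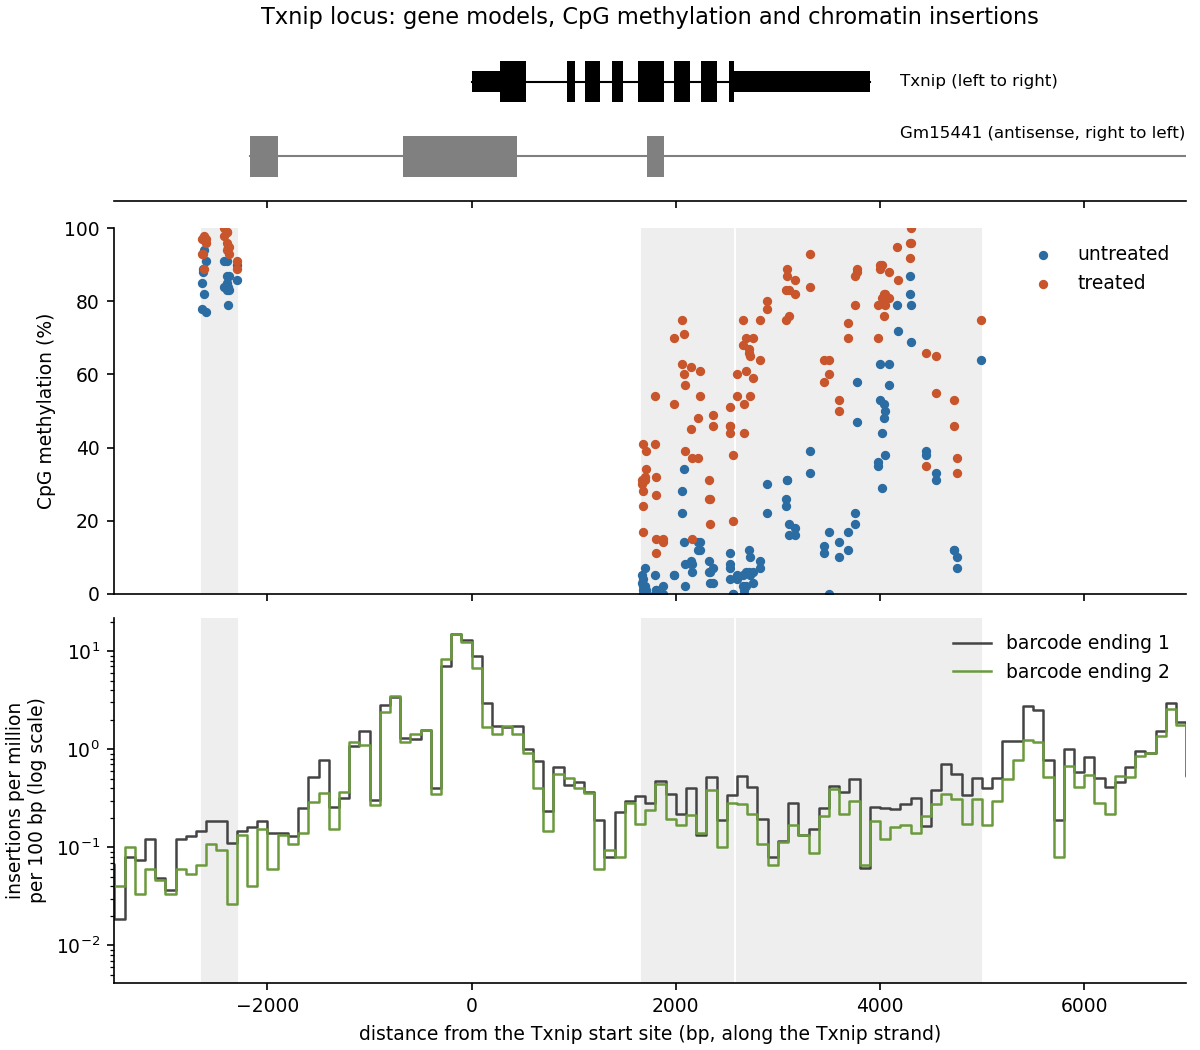
Txnip locus by distance from its start site. Top, gene models of Txnip (thick parts are coding) and of the antisense gene Gm15441; middle, methylation of each CpG cytosine in the called regions (grey) in untreated (blue) and treated (orange) cells; bottom, IPM (insertions per 1000000) in bins of 100 bp for both barcode endings on a log scale. Treated values lie above untreated ones at 112 of 113 cytosines of the 3 downstream regions, which were called for such a difference. Both endings peak at the start site.

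The other gains lay far from the annotated starts of their genes. In Slc2a3 the region chr6:122761139-122761385 went from 15.7% ± 12.8 to 43.7% ± 17.2 (22 cytosines), within the annotated gene but centred at -18517 bp from the start of its principal transcript. In Hk1 the region chr10:62300449-62300688 in intron 4 of the principal transcript went from 52.5% ± 18.4 to 78.5% ± 12.8 (15 cytosines). Both gains were thus smaller than that of the middle Txnip region.

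The losses lay in the first or second intron of Pfkp, Slc2a1 and Pkm. In Pfkp, the region chr13:6636390-6636822 in intron 1 went from 61.8% ± 18.4 to 21.8% ± 14.8 (18 cytosines). In Slc2a1, the region chr4:119125514-119125841 in intron 2 went from 67.5% ± 16.1 to 30.2% ± 13.8 (12 cytosines). In Pkm, the region chr9:59658522-59659413 in intron 1 went from 42.8% ± 24.8 to 12.6% ± 11.5 (22 cytosines). Every cytosine of the 3 regions was lower in treated cells. Over the summed cells, the RNA of these genes did not share a direction: Pfkp was at lower CPM in treated cells, Pkm at higher CPM, and Slc2a1 nearly level. In sub-cluster 5, Pfkp (614 CPM) and Pkm (732 CPM) were above both untreated sub-clusters. Slc2a1 there (74.3 CPM, 3 cells) lay between untreated sub-clusters 2 and 4 (49.1 and 89.5 CPM, 7 and 4 cells). The 8 regions had an observed over expected CpG ratio of 0.241 to 0.638, against a median of 0.376 over all 2873 regions.

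Within 50 kb of a start, outside gene and promoter, 4 more genes had a region. Myc had a loss between genes at -35546 bp from its start, from 84.2% to 39.1%. Pfkm had a loss in the neighbouring gene Senp1, from 66.25% to 20.95%. Mlxip had a gain in Bcl7a, from 31.7% to 65.9%, and Hif1a a gain in Gm49321, from 13.8% to 41.0%. Which gene such a region belongs to is unknown. In the neighbouring lists, gains were found in Txnrd1 (from 15.4% to 59.1% and from 33.9% to 58.6%) and Txnrd2 (from 18.9% to 49.4%), which encode thioredoxin reductases. Gains were also found in Ldhd, Egln1, Egln3 and Epas1, with a loss in Epas1 too, and no gene of pyruvate entry or of the pentose phosphate pathway had a region.

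The multiome fragments carry barcodes ending in -1 or -2, and the labels do not say which ending belongs to which group, so that the values of both are given side by side without a direction of treatment. With at least 1000 fragments per barcode there were 8565 barcodes of ending 1 and 7237 of ending 2 (medians of 7104 and 8591 fragments), and 100 barcode sequences occurred with both endings. Barcodes were not called as cells and doublets were not removed. Each end of a fragment was counted as an insertion, and levels are insertions per 1000000 insertions of that ending (IPM). The intervals of the ratios treat insertions as independent. The ends of a fragment and the fragments of a barcode are not, so that these intervals are too narrow.

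Within 2 kb of the start, 24 of the 32 genes had a ratio of ending 2 over ending 1 within 10% of 1 (among all genes, 60.1% of 14800 promoters with at least 200 insertions), and the median log2 ratio was 0.04, against 0.00 over those promoters. The lowest promoter of ending 1 was that of Hk1 (0.743 IPM) and the highest that of Aldoa (107). A promoter was higher in ending 2 by a log2 ratio of 1 in 1 of the 32 genes, where 4.28% of the promoters were, and lower in 0, where 0.696% were. The Txnip promoter had 74.2 IPM in ending 1 and 68.0 in ending 2, a ratio of 0.916 (0.892 to 0.941). An insertion in this window was found in 41.8% and 43.2% of barcodes, and the ending with the larger share was also the deeper one per barcode. The promoter thus differed little between the endings.

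The promoter past the limit was that of Hif1a, the subunit of the hypoxia factor that also drives glycolytic genes, with 240 insertions in ending 1 and 513 in ending 2 (1.47 and 3.43 IPM), a ratio of 2.32 (1.99 to 2.72). It is the upstream start of the gene. Around the start of the principal transcript, 6529 bp downstream, there were 61.4 and 63.96 IPM, a ratio of 1.04 (1.01 to 1.07). With 500 bp on each side, the upstream start had 72 and 272 insertions, a ratio of 4.11 (3.16 to 5.40). A stretch between both starts, 2600 to 3999 bp after the upstream one and chosen after its values were seen, had 146 and 603 insertions, a ratio of 4.49 (3.74 to 5.42). The endings thus differed at the upstream start and downstream of it, and much less at the principal start. The weakly open start of Hk1, 121 and 157 insertions in the 2 kb window (1.41, from 1.11 to 1.80), had 17 and 40 with 500 bp on each side, a ratio of 2.56 (1.42 to 4.81). The principal start of Hk1 was also weakly open (1.35 and 1.18 IPM), so that the start used in these cells is not known. In the 2 kb window the largest ratio after Hif1a was that of Hk2, an inducible hexokinase, with 22.99 and 33.38 IPM (1.45, from 1.39 to 1.51). The lowest ratio was that of Ldhb, the subunit that favours pyruvate, with 9.86 and 5.997 IPM (0.608, from 0.560 to 0.660), followed by Myc with 72.4 and 58.5 (0.807, from 0.785 to 0.830). For Slc2a3 the ratio was 0.995 at the gene's first start and 0.732 (0.708 to 0.756) at the start of the principal transcript, 58895 bp further on, where it had 54.1 and 39.6 IPM.

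**Figure D4:**
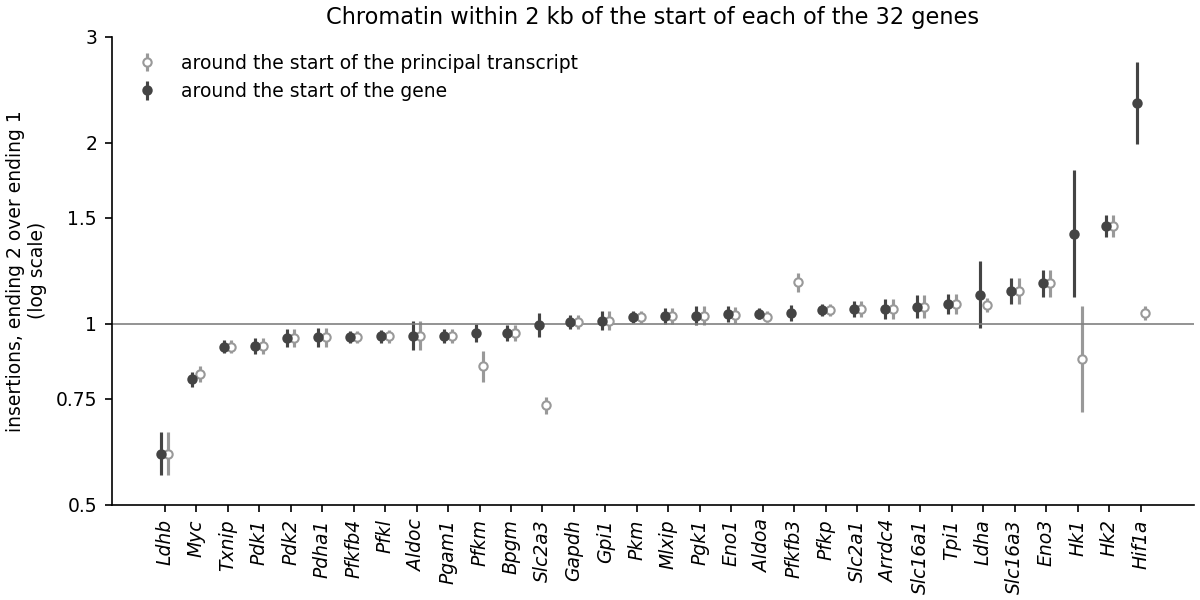
Ratio of IPM, ending 2 over ending 1 (log scale), within 2 kb of the start of each of the 32 genes (filled) and of the start of its principal transcript (open), in ascending order of the filled points; bars are 95% counting intervals. Most genes lie near 1, Ldhb is lowest (0.608), and Hif1a is highest at its upstream start (2.32) and near 1 at the principal one.

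The 8 methylation regions that overlapped listed genes had ratios further from 1 than the promoters of the same genes in the 2 kb window. With 500 bp on each side, the Hk1 promoter (2.56) was further from 1 than the Hk1 region. In the 3 Txnip regions the insertions were 460, 550 and 659 in ending 1 and 298, 339 and 367 in ending 2, and the ratios were 0.704 (0.607 to 0.817), 0.670 (0.584 to 0.769) and 0.606 (0.532 to 0.689). The Slc2a3 region had 205 and 71 insertions, a ratio of 0.377 (0.283 to 0.495), and the Hk1 region 77 and 42, a ratio of 0.593 (0.397 to 0.875). The regions that lost methylation went the other way: Pfkp had 319 and 753 insertions (2.57, from 2.25 to 2.94), Pkm 311 and 633 (2.21, from 1.93 to 2.54) and Slc2a1 330 and 604 (1.99, from 1.74 to 2.28). The 5 gains thus had fewer insertions in ending 2 and the 3 losses more. The same split ran through the series, with a median ratio of 0.586 over 814 gains and 4.198 over 1602 losses that held at least 50 insertions, so that it is not particular to these genes. Of the regions beyond the genes, the Pfkm one in Senp1 had 40 and 778 insertions, a ratio of 21.1 (15.4 to 29.8), the Myc one 6 and 22, a ratio of 3.99 (1.57 to 12.02), and the Txnip one upstream 87 and 40, a ratio of 0.4999 (0.335 to 0.735). The gains near Hif1a (78 and 80 insertions, 1.11, from 0.806 to 1.54) and Mlxip (88 and 76, 0.939, from 0.682 to 1.29) had intervals that covered 1. Txnip as a whole body was at a ratio of 0.754 (0.721 to 0.789), below its promoter.

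**Figure D5:**
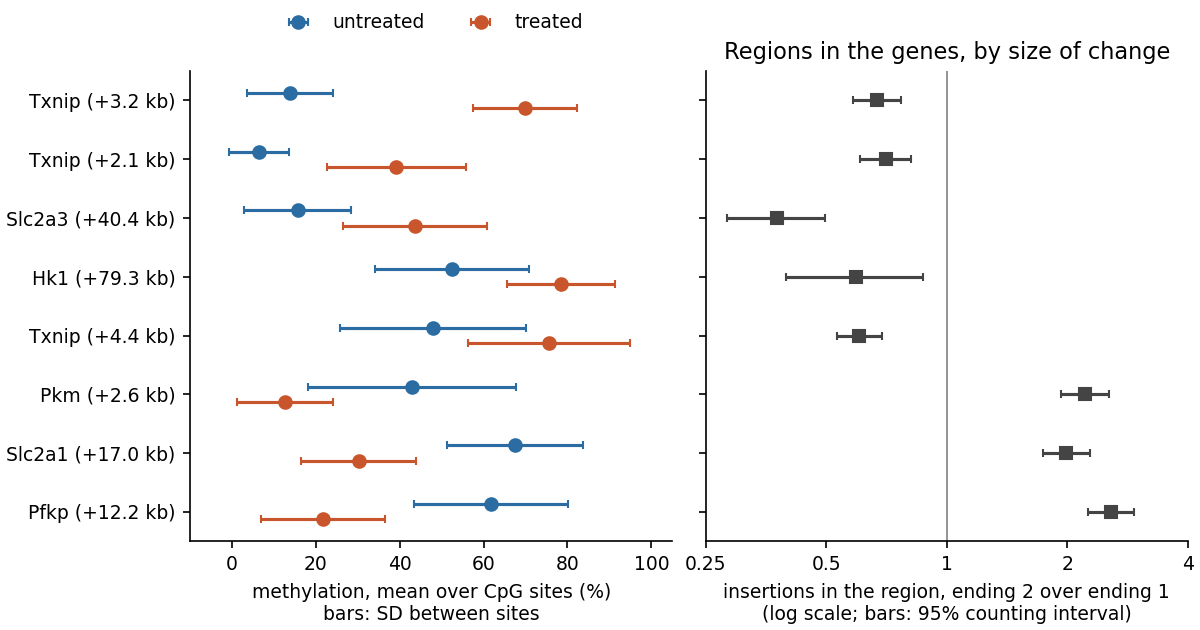
Left, methylation of the 8 regions in Txnip, Slc2a3, Hk1, Pkm, Slc2a1 and Pfkp as the mean over CpG cytosines in untreated (blue) and treated (orange) cells, with SD between cytosines; distances are from the gene start to the middle of the region. Right, insertions in the same regions as the ratio of ending 2 over ending 1 (log scale) with 95% counting intervals, under 1 in the 5 gains and over 1 in the 3 losses.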

How the data were processed

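Single-cell RNA, bulk DNA methylation and chromatin fragments of LiNKT cells were analysed. The SmartSeq2 tables hold raw read counts per gene and cell, as deposited by the authors, who aligned the reads to GRCm38 and counted them per gene with STAR. The methylation tables hold a fraction of methylated reads per cytosine and per region and group, as deposited, from reads mapped to mm10 with BSMAP. The authors called regions between the groups with metilene, and the deposited q-value of a region and its CpG number, deposited as a score, served here only as alternative thresholds. Group means and the difference in that table are the authors' own, and their other comparison columns were not used. The deposited fragment list came from Cell Ranger ARC, per the study's methods, and the authors merged both samples with barcode endings 1 and 2.

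Groups were taken from the labels. Cells were those to which the study gave a sub-cluster, 273 of 284 untreated and 251 of 282 treated, and 55141 of 55401 gene IDs matched GENCODE M21. The range of counts per cell was 20512 to 1398716 in untreated and 4056 to 1035608 in treated cells. Counts were summed per group and scaled to CPM, with a prior of 1 CPM in log2 ratios. With 1 sample per group no count model or test was run, and intervals are exact Poisson or binomial ones. Promoters were compared by insertions with a prior of 0.1 IPM, and sequences and promoter windows came from RefSeq on GRCm38.p6, with entries for 30 of the 32 genes. The step from counts to ratios was checked on simulated counts. Python 3.11.15, numpy 2.4.6, pandas 2.3.3, scipy 1.17.1, pyarrow 21.0.0 and matplotlib 3.10.9 were used.

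The genes, the neighbouring lists and the rules were chosen with earlier results of these data known, among them the gain in Txnip. Described with values were all genes of the list that passed the filter or had a region in gene or promoter. Others named with values were chosen after their values were seen. Alternatives changed the cells, lane, scaling, prior, filter, sub-cluster, region threshold, gene assignment, promoter window and barcode filter. Leaving out sub-cluster 5, leaving out cells with markers of other cell types, and the principal start site were added after the data were seen. Gene expression of the multiome was not analysed here.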

Additional observations from a re-analysis of the deposited data

How the results depend on the processing

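Of 405 comparisons of a value with its alternative, 265 moved by less than the counting interval or the spread between cytosines, or, for counts, by at most 1.5 times, and 140 moved further. In 22 of the 405 the value lay on the other side of no difference, 17 of them log2 ratios of expression, none of a gene counted as lower or higher, and 5 of them promoter ratios. The log2 ratio of Txnip (-1.04) was -1.13 with all deposited cells, -1.16 with cells of at least 500 genes and under 10% mitochondrial counts, -1.2 in lane 1, -0.74 in lane 2, -0.98 as a mean of per-cell CPM, -1.14 without the highest cell, -1.07 without mitochondrial and the 10 most abundant genes, -0.76 within sub-cluster 2, -0.81 within sub-cluster 4, -0.71 without sub-cluster 5 and -1 without cells carrying markers of other cell types. The log2 ratio of the summed glycolytic enzymes (0.02) was, in the same order, 0.09, 0.04, -0.02, 0.09, -0.01, -0.01, -0.01, -0.04, 0.16, -0.14 and 0.05, and 0.03 when centred on the median gene. Of the 11 genes, Txnip, Eno1, Pfkp and Pgam1 kept their sign under each alternative. Aldoa turned to -0.16 in lane 1 and -0.11 as a mean of per-cell CPM, and Mlxip (-0.01) to 0.16 and 0.13 there and 0.19 within sub-cluster 2, with -0.37 in lane 2 and -0.69 within sub-cluster 4. Tpi1 turned to -0.06 and Gapdh to -0.01 in lane 2, Pkm to -0.16 within sub-cluster 2, Gpi1 to 0.54 and Ldha to -0.16 within sub-cluster 4, and Ldha to -0.03 without sub-cluster 5. The count of listed genes lower in treated cells (1) was 0 with the mean of per-cell CPM and within sub-cluster 4, and 7 without a filter on low counts, where 5 were higher instead of 0. It was Myc and not Txnip in lane 2, within sub-cluster 2 and without sub-cluster 5. Over all genes, 64 were lower and 77 higher. These counts were 2579 and 3019 of 19039 without the filter, 225 and 225 in lane 2, 248 and 88 within sub-cluster 2, and 119 and 196 within sub-cluster 4. Of the regions, 2 genes had a gain and 1 a loss with at least 20 CpG cytosines (both strands counted), 0 a gain and 0 a loss in the 2 kb upstream, and 4 a gain and 5 a loss within 50 kb of the start. The promoter ratio changed to 0.875 for Hk1 at its principal start, and with 500 bp on each side to 2.56 for Hk1 and 4.11 for Hif1a (from 1.41 and 2.32), 0.953 for Aldoa, 0.965 for Pkm and 0.990 for Pgk1. That of Slc2a3 was 1.004 when scaled to insertions in promoters. The cause was not tested. No paired analysis was possible because each group was 1 sample per assay. Reads without molecular identifiers, an unknown depth per cytosine and few insertions at weak promoters limit the precision.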
